A study of Mus musculus with 15 samples.

Results

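The 5 trigeminal ganglia (TG) of the vehicle group, of 15 ganglia in the series, were described by their RNA-seq counts without any comparison between treatments. All came from 10-week-old male CD1 mice, an outbred stock. The right cornea had been marked with a 2-mm trephine, the epithelium and anterior stroma inside the mark were removed, and eye drops followed 3 times per day. The right TG was collected on day 12. The other groups, 5 ganglia given RvD6-standard and 5 given RvD6-isomer, both resolvin D6 lipids, were not analysed here. Vehicle ganglia were chosen by their title and treatment label alone. The treatment protocol entered for these same samples names both resolvins and no vehicle, so what the group received rests on the title and treatment label. The series holds no ganglion from an uninjured animal, so a level below is that of an injured, vehicle-treated animal and not a change. A mouse has a single right TG, and neither the labels nor the methods mention pooled ganglia or repeat libraries. The spread between ganglia includes that of dissection and library preparation. In whole ganglia, fewer cells of a type and less RNA per cell cannot be told apart.

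The TG holds the cell bodies of the sensory neurons of the face and of the cornea. Small neurons with thin axons carry pain, itch and temperature, and many of them release the peptides CGRP and substance P. Larger neurons with myelinated axons carry touch. Satellite glia wrap the cell bodies and Schwann cells wrap the axons, and vessels, fibroblasts and resident macrophages lie between them. The ganglion is cut from the floor of the skull, where it lies close to bone, marrow, muscle and the pituitary, so that marker lists of those tissues were included.

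Each library held between 7421910 and 9903396 reads assigned to genes, and a read was found for 20078 to 22198 genes. Levels are given as TPM, a length-scaled unit: counts were divided by the exonic length of the gene and scaled to the same total in each sample, so that genes can be compared with each other. At a minimum of 1 TPM in all 5 ganglia, 13231 genes were detected. Among nuclear protein-coding genes 10801 of 21967 (49.2%) reached it. The nuclear protein-coding genes were steeply graded, with 52 at a mean of 1000 TPM or more, 994 between 100 and 1000, 5476 between 10 and 100 and 6245 between 1 and 10. The Spearman correlation between pairs of ganglia over the detected genes lay between 0.921 and 0.953. Counts of any pair differed by more than counting noise, with a chi-square per degree of freedom of 13.75 to 32.95, and no library appeared to be deposited more than once.

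The spread of a gene between ganglia is given as an excess coefficient of variation (CV). It is the CV of the normalised counts after the share that counting alone gives was taken away, for the 11614 genes with a mean count of at least 50. Its median was 0.212, with quartiles of 0.140 and 0.312. Genes with an excess CV over 0.5 are called variable below, and these were 718 genes (6.18%). A list of genes is described by its counts beside this background, and summed TPM of a list is not a number of cells.

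The 4 marker genes of the tissue were present in every ganglion. Tubb3, the neuronal tubulin (chr8:123411424-123422015), was at 2961, 3222, 3107, 3317 and 3083 TPM in replicates 1 to 5. It was among the steadiest of the highly expressed genes, with a mean of 3138 ± 136 TPM (SD, n = 5). Fabp7, a fatty acid binding protein of satellite glia (chr10:57784881-57788450), was at 661, 565, 477, 658 and 886 TPM. Replicate 3 was lowest and replicate 5 highest, and the mean was 649 ± 153 TPM. Calca, which encodes CGRP alpha (chr7:114631478-114636357), was at 1398, 1353, 1638, 1574 and 1697 TPM, with a mean of 1532 ± 150. Trpm8, the menthol and cold channel of a small neuron class (chr1:88277661-88389293), was at 12.7, 14.1, 9.9, 9.66 and 11.6 TPM, with a mean of 11.6 ± 1.88. Thus Calca stood at 0.489 ± 0.0513 and Trpm8 at 0.00371 ± 0.000651 of the Tubb3 level in the same ganglion. Coordinates are those of the GRCm38 assembly.

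The gene lists of neurons, glia and myelin held 104 genes, of which 97 (93.3%) were at 1 TPM or more in all 5 ganglia. Over all nuclear protein-coding genes 49.2% reached this level. Of the 93 with enough reads for the spread, 2 (2.15%) were variable, and Foxp2 was 1 of them. Over all nuclear protein-coding genes with enough reads the share was 6.39%. The median excess CV was 0.207 in these lists, close to the 0.218 over all nuclear protein-coding genes. The lists of neutrophils, red cells, dividing cells, B cells, T and NK cells, skeletal muscle, pituitary and bone held 74 genes. Of these, 27 (36.5%) were detected in all 5 ganglia. Of the 22 of these with enough reads, 17 (77.3%) were variable. Enough reads was judged on the mean over the same 5 ganglia, so a gene could pass through its highest ganglion alone. The share is therefore a description and not a test of spread. The sets were not matched for level, on which spread depended. The plot of summed levels shows each list by ganglion.

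**Figure D1:**
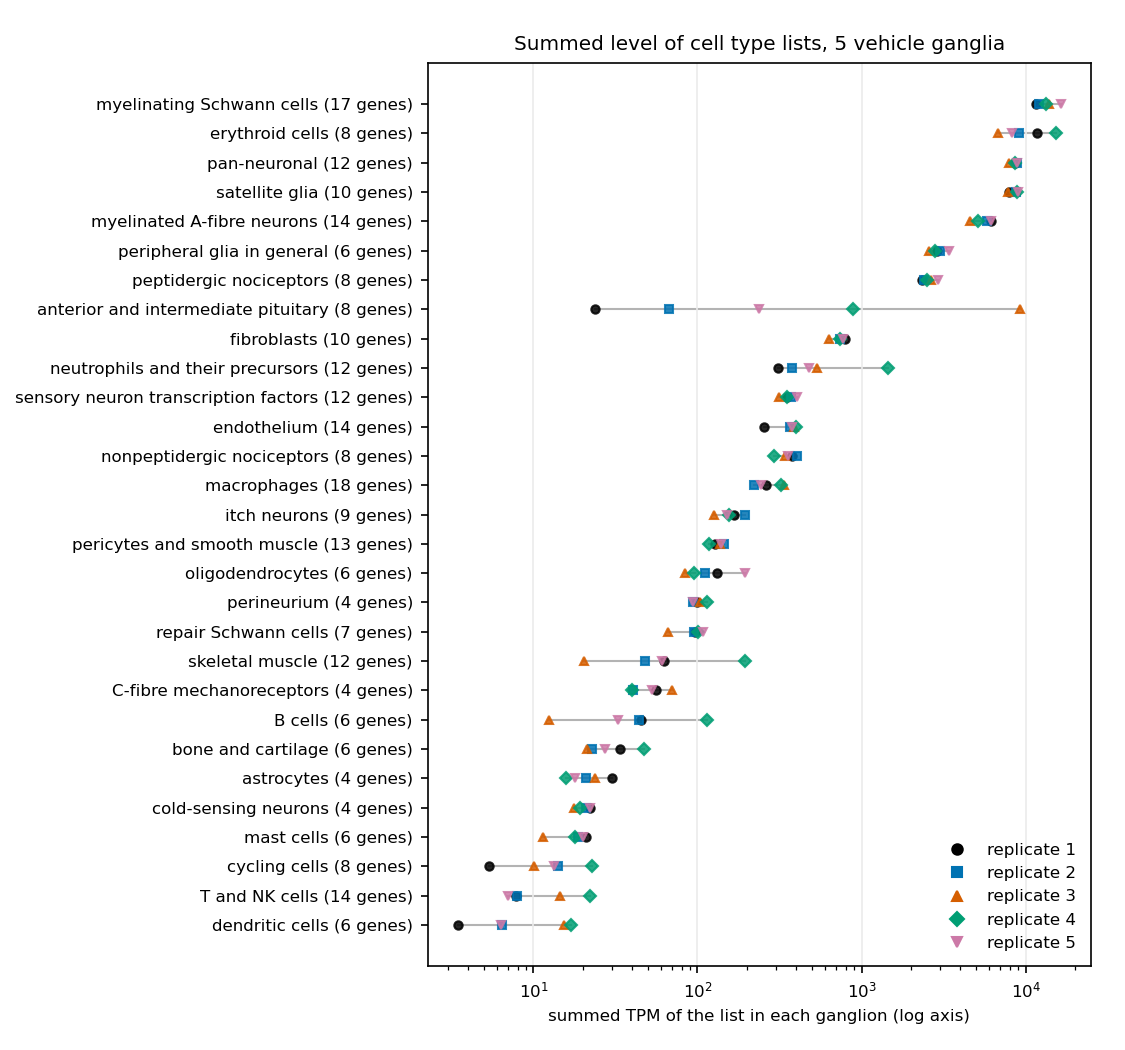
Summed TPM (log axis) of 29 cell type lists in each of the 5 vehicle ganglia, ordered by mean, with a grey line from the lowest to the highest ganglion. The highest ganglion was 1.13 times the lowest for the pan-neuronal list, 1.42 times for myelin and 1.74 times for C-fibre touch neurons, whereas the pituitary list ran from 23.9 to 9229 TPM and the neutrophil list from 309 to 1450 TPM. The sympathetic and adipocyte lists are left out because some ganglia were at 0.

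The 15 nuclear protein-coding genes with the highest mean level were led by glia, myelin, cytoskeleton and blood. Pmp22, a protein of compact myelin (chr11:63128982-63159547), was highest at 8691 ± 1361 TPM, and Apoe, the lipid carrier secreted by satellite glia (chr7:19696109-19699188), followed at 7293 ± 476 TPM. Neuronal genes among the 15 were Sncg (gamma-synuclein) at 4095 ± 266 TPM, Stmn3, a stathmin that binds tubulin, at 3163 ± 257 TPM, Tubb3, and the neurofilament gene Nefl at 2437 ± 210 TPM. Actin (Actb) was at 5197 ± 272 TPM, the tubulin polymerisation gene Tppp3 at 3443 ± 97.7 TPM, the chaperone Hsp90ab1 at 2733 ± 202 TPM and the annexin Anxa5 at 2499 ± 172 TPM. The haemoglobin genes Hba-a1, Hbb-bs and Hbb-bt were at 3518, 2566 and 2392 TPM. The polyubiquitin gene Ubb and the predicted gene Gm8797 complete the 15, at 3705 and 3631 TPM. Tppp3 had the smallest CV of these genes, 2.84%.

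Some of these levels rest on sequence that occurs at more than 1 place in the genome. The pattern was noticed in the data and the genes below were chosen after their values were seen. The nuclear pseudogene Gm28437 had 9404 ± 1556 TPM, close to the 9615 ± 1744 TPM of mt-Co3, the mitochondrial gene for cytochrome c oxidase subunit 3. The transcript models are identical at 783 of 783 positions of the shorter one. Their first 75 bases, a read's length, are printed to show this.
mt-Co3 (chrM:8607-8681, + strand, GRCm38): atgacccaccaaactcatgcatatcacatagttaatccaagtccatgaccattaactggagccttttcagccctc
Gm28437 (chr1:24613897-24613971, - strand, GRCm38): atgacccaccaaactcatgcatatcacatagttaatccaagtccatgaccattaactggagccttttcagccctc
A read from either sequence cannot be told from a read of the other. Gm10925 (9215 ± 1935 TPM) and mt-Atp6 (11302 ± 2532 TPM) stood in the same relation, with 100% of the 75-base windows of Gm10925 also present in another gene. Among nuclear genes the share of such windows was 67.9% for Hba-a1, 84.6% for Hba-a2, 51.5% for Hbb-bs, 56.6% for Hbb-bt, 46.2% for Ubb and 71.2% for Gm8797, so that the split of reads within these families is uncertain. Pseudogenes took 20.04 ± 0.595% of all TPM but 6.10 ± 0.354% of the reads. Nuclear protein-coding genes took 56.1 ± 1.27% of TPM and 77.6 ± 0.841% of the reads. The 13 protein-coding genes of the mitochondrial genome took 7.37 ± 1.09% of TPM, with replicate 3 highest at 8.97%. Because some of these 13 genes share sequence with pseudogenes, the split between the mitochondrial and pseudogene shares is uncertain too.

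Neurons in general were the steadiest list. The summed level of 12 pan-neuronal genes was 8639, 8881, 7897, 8570 and 8903 TPM, a CV of 4.75%, and 12 of 12 members were detected in all 5 ganglia. Behind Tubb3 came Prph, the intermediate filament of thin-axon neurons, at 1552, 1758, 1404, 1511 and 1784 TPM. Uchl1, the ubiquitin hydrolase known as PGP9.5 and used to stain corneal nerves, was at 1715, 1563, 1257, 1561 and 1648 TPM. Prph was above Uchl1 in 3 of 5 ganglia, so their order was not settled, while Tubb3 was above Prph and Uchl1 above Stmn2 (885 ± 28.4 TPM) in 5 of 5 with ranges that did not overlap.

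The transcription factors that define sensory neurons were lower, at a summed 357 ± 32.7 TPM, with 11 of 12 detected in all 5 ganglia. Isl1, a LIM homeodomain factor of all sensory neurons, led at 108 TPM (range 99.4 to 133), followed by Prrxl1 at 80.4 TPM (68.0 to 90.8), the LIM cofactor Ldb2 at 61.8 TPM and the POU factor Pou4f3 at 26.2 TPM. Pou4f1, the factor known as Brn3a, was at 22.4 TPM (19.7 to 28.6). Runx1, a factor of the thin-axon lineage, and Runx3 were at 5.92 and 3.77 TPM. None of the 10 members with enough reads was variable. In contrast, noradrenergic genes of sympathetic neurons were nearly absent. Dbh, Phox2a and Hand2 had 0 reads in all 5 ganglia, where 3 reads over the 5 libraries would be a mean of 0.0602, 0.0797 and 0.0690 TPM. The noradrenaline transporter Slc6a2 was found in replicate 2 only, at 0.726 TPM.

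Peptidergic nociceptors were represented by 8 of 8 detected genes and a summed 2563 ± 237 TPM. Calcb, the gene for CGRP beta, was at 282, 331, 279, 325 and 300 TPM. Tac1, which encodes substance P, was at 295, 262, 281, 237 and 369 TPM, and was highest in replicate 5. Calca exceeded Calcb 5.09 ± 0.709-fold (SD of the ratio, n = 5). Calcb was above Tac1 in only 2 of 5 ganglia although its mean was higher, so that these neighbours in the order did not differ beyond their spread. Gfra3, the artemin co-receptor, was at 109 TPM (85.6 to 129), the peptide galanin (Gal) at 50.7 TPM (28.4 to 62.8), and Adcyap1, which encodes PACAP, at 8.03 TPM.

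In the list of nonpeptidergic nociceptors 8 of 8 genes were also detected, with a summed 356 ± 41.8 TPM. Mrgprd, the orphan receptor that marks this class, was at 114, 116, 82.0, 80.3 and 97.4 TPM. It lay close to Cd55 (92.1 TPM, 62.8 to 114), a complement regulator, and was the higher of the pair in 3 of 5 ganglia. The lysophosphatidic acid receptor Lpar3 was at 57.9 TPM (49.1 to 79.8). The ATP-gated channel P2rx3 was at 27.3, 42.5, 36.9, 37.5 and 38.4 TPM, below Lpar3 in all ganglia and without overlap of the ranges.

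The itch, cold and C-fibre touch lists summed to 159 ± 25.6, 20.4 ± 1.97 and 51.8 ± 12.3 TPM. Nts, the neurotensin gene expressed in an itch class, was at 101, 117, 55.7, 95.3 and 123 TPM. Mrgpra3, the chloroquine receptor of another itch class (chr7:47588950-47601372), was at 40.2, 40.7, 42.1, 39.0 and 10.3 TPM. Replicates 1 to 4 were nearly equal and replicate 5 was far lower, which placed its Mrgprd to Mrgpra3 ratio at 9.43 against 1.95 to 2.86 in the others. Sst (somatostatin) was at 9.91 TPM with a wide range of 2.91 to 17.3, the leukotriene receptor Cysltr2 was at 6.72 TPM, and Nppb, the natriuretic peptide of the itch pathway, was at 0.203 TPM. In the cold-sensing list Trpm8 was above the cadherin Cdh8 (4.74 TPM), Fam19a3 (2.99 TPM) and Foxp2 (1.11 TPM) in that order, and each neighbour pair kept its order in 5 of 5 ganglia. Th, the tyrosine hydroxylase gene that marks C-fibre touch neurons in sensory ganglia, was at 32.9, 13.3, 28.8, 10.5 and 27.1 TPM. Replicates 2 and 4 were lower than the other ganglia by more than the spread among those. The same ganglia were not lowest for Fam19a4 (16.5 TPM, 8.16 to 25.7), another gene of these neurons, which was lowest in replicate 1. Dbh, a later enzyme on the way to noradrenaline, had 0 reads, and the sympathetic marker Slc6a2 was found in replicate 2 only, at 0.726 TPM. The source of the Th reads was not tested.

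Genes of neurons with myelinated A-fibres summed to 5579 ± 677 TPM, most of it from neurofilaments. Nefl was at 2655, 2523, 2104, 2380 and 2524 TPM, and 32.8% of its exonic bases overlap another gene. Nefh, the heavy neurofilament chain, was at 1352, 1255, 912, 979 and 1167 TPM, and Nefm, the medium chain, at 841 ± 261 TPM. Spp1 (osteopontin) was at 541, 512, 553, 834 and 1070 TPM, so that replicates 4 and 5 were set apart from the other 3. The calcium-binding proteins Calb1 and Pvalb, found in large neurons, were at 88.8 TPM (75.6 to 108) and 71.1 TPM (66.6 to 78.2). Of the neurotrophin receptors of these neurons Ntrk2 was at 26.9 TPM (20.2 to 30.7) and Ntrk3 at 9.82 TPM (5.72 to 14.2).

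**Figure D2:**
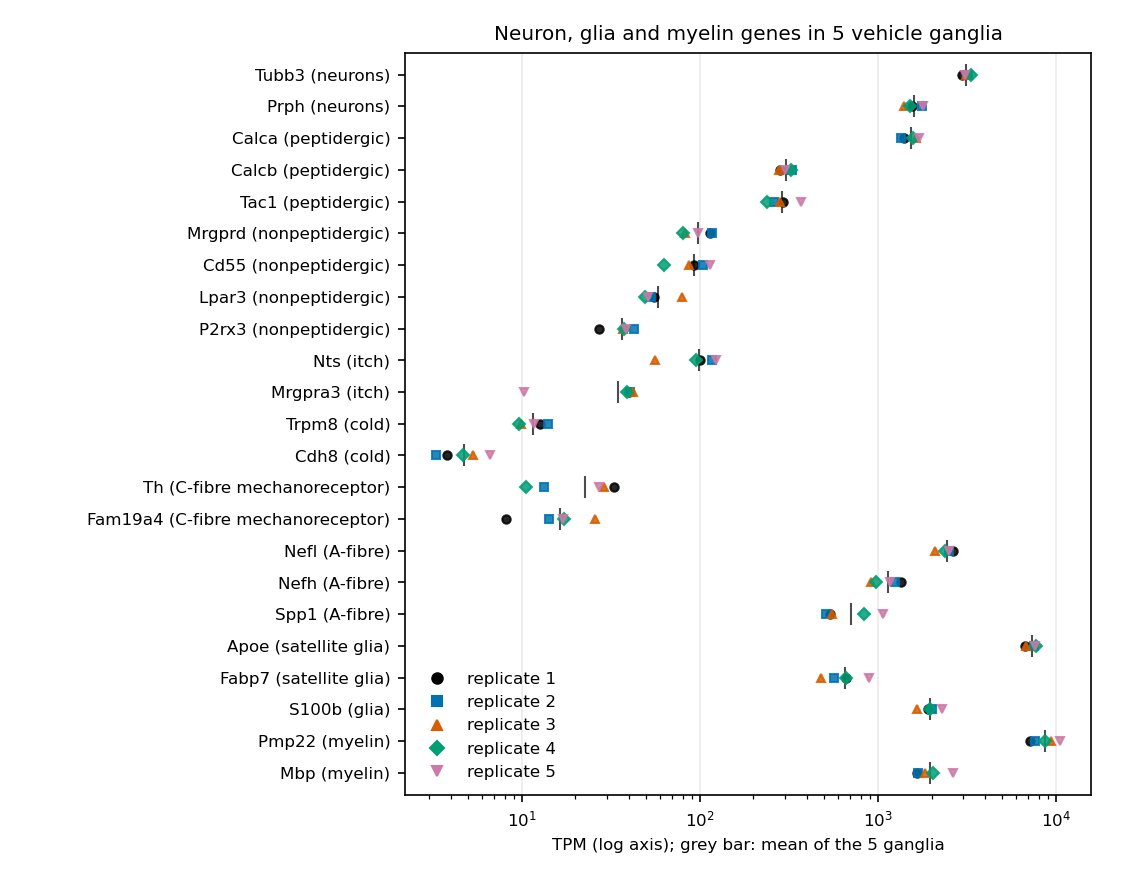
TPM (log axis) of 23 genes of neurons, glia and myelin in the 5 vehicle ganglia, with the class in brackets, a symbol per replicate and a bar at the mean. Tubb3, Apoe and Calcb were tight, whereas Mrgpra3 was low in replicate 5 (10.3 TPM) and Spp1 high in replicate 5 (1070 TPM).

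The satellite glia list summed to about the level of the pan-neuronal list. Its 10 genes summed to 7915, 8708, 7852, 8905 and 8964 TPM, and 86.1% of this was Apoe. The ratio of this sum to the pan-neuronal sum was 0.987 ± 0.0454. Apoe was at 6732, 7515, 6831, 7759 and 7627 TPM. Below Fabp7 came the glycolytic enzyme Aldoc (209 TPM, 158 to 252), glutamine synthetase (Glul, 127 TPM), the endothelin receptor Ednrb (90.3 TPM) and the potassium channel Kcnj10 (42.4 TPM, 25.8 to 55.7), which buffers potassium around the cell bodies. Gfap, which satellite glia express at a low level in resting ganglia, was at 12.4 TPM (8.96 to 21.8), and the gap junction gene Gja1 at 3.02 TPM. None of the 10 was variable. In the list of peripheral glia in general, S100b, a calcium-binding protein, was at 1920, 2003, 1668, 1968 and 2286 TPM. The glial transcription factor Sox10 was at 14.5 TPM (9.34 to 20.2).

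Myelin genes had the highest mean sum of any list, 11610, 12008, 13875, 13383 and 16458 TPM, and 17 of 17 were detected. In replicates 1 and 4 the erythroid list was higher. Pmp22 was at 7171, 7625, 9414, 8700 and 10545 TPM and made 64.5% of the sum. Mbp, myelin basic protein, was at 1658, 1680, 1838, 2034 and 2645 TPM. Pmp22 and Mbp were both highest in replicate 5 and lowest in replicate 1. Ncmap, a protein of noncompact myelin, was at 817 ± 107 TPM, Mal at 584 TPM (498 to 772), Cnp at 576 TPM (452 to 753), Prx (periaxin) at 104 TPM and Egr2, the transcription factor of myelination, at 23.9 TPM (16.8 to 31.0). The ratio of the myelin sum to the pan-neuronal sum was 1.57 ± 0.230, and ran from 1.344 in replicate 1 to 1.85 in replicate 5.

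Genes linked to repair Schwann cells summed to 93.7 ± 16.01 TPM, nearly all of it Jun (55.8 TPM) and Ngfr (33.7 TPM), which neurons and other glia also express. The more restricted members were low, with Olig1 at 2.92 TPM, Shh at 0.584, Runx2 at 0.398, Artn at 0.125 and Gdnf at 0.124 TPM, and none of them was detected in all 5 ganglia. Central glia were looked for because the ganglion root meets the brainstem. The oligodendrocyte genes Mobp, Aspa and Mog were at 48.9 TPM (35.8 to 82.0), 42.4 TPM (30.4 to 66.4) and 28.1 TPM (9.21 to 42.5). However, Olig2 and Opalin were at 0.337 and 0.877 TPM and missing from some ganglia. The sum of the list was highest in replicate 5, 194 TPM against 83.9 to 131 TPM in the others. Of astrocyte genes the water channel Aqp4 was at 14.7 TPM (10.9 to 21.4), and Aldh1l1, Slc1a2 and Slc7a10 were at 3.53, 2.89 and 0.570 TPM.

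Vessels gave 357 ± 58.6 TPM from 14 endothelial genes. The sum was 255 TPM in replicate 1 and 366 to 399 TPM in the others. Cldn5 made 44.7% of the mean sum, and 5 of the 14 members were highest in replicate 1. Cldn5, the tight junction protein of barrier endothelium, was at 91.1, 144, 178, 173 and 212 TPM, with replicate 1 lowest. Ly6c1 was at 92.3 TPM (70.0 to 112), the adhesion molecule Esam at 46.0 TPM and Egfl7 at 17.3 TPM. Receptors and transcription factors of endothelium were much lower, with Flt1 at 4.78 TPM, Kdr at 4.33, Pecam1 at 4.02, Cdh5 at 1.76 and Erg at 0.479 TPM. Genes of pericytes and smooth muscle summed to 133 ± 10.8 TPM. Acta2, smooth muscle actin, was at 41.7, 63.8, 50.9, 49.3 and 38.8 TPM, vitronectin (Vtn) at 34.3 TPM (18.4 to 49.6), Rgs5 at 13.8 TPM (12.3 to 15.7) and Pdgfrb at 12.2 TPM (9.48 to 14.0). Kcnj8, a potassium channel of pericytes, was the variable member, from 1.06 to 11.6 TPM.

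Connective tissue was prominent. Fibroblast genes summed to 735 ± 59.7 TPM. Decorin (Dcn) was at 495, 384, 400, 406 and 478 TPM, lumican (Lum) at 166 TPM (137 to 193), the microfibril protein Mfap5 at 86.1 TPM and the collagen Col1a2 at 30.5 TPM (18.97 to 39.7). Col1a1 and Pdgfra were at 3.90 and 2.26 TPM and were both variable. The perineurium list summed to 101 ± 8.44 TPM and was dominated by the glucose transporter Slc2a1 at 81.7 TPM (73.5 to 92.1), which endothelium also uses, while Itgb4 was at 11.2, Cldn1 at 5.88 and Lypd2 at 2.00 TPM. Adipocyte genes were close to absent, at a summed 1.51 TPM, with Lep, Cfd and Cidec at 0 reads.

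Macrophages were the clearest resident immune class. The 18 genes summed to 261, 221, 335, 324 and 244 TPM, 15 were detected in all 5 ganglia and none of the 9 tested was variable. C1qb, a subunit of complement C1q made by tissue macrophages, was at 60.7, 57.1, 73.2, 76.8 and 35.2 TPM. The protease Ctss was at 55 TPM (34.5 to 77.7), and the signalling adaptors Fcer1g and Tyrobp were at 29.5 TPM (25.2 to 35.6) and 28.7 TPM (15.5 to 43.0). The receptor Csf1r was at 13.9 TPM and P2ry12, a receptor of microglia and some ganglion macrophages, at 14.8 TPM, whereas Tmem119 was at 2.99, Cx3cr1 at 2.35 and Ccr2 at 1.92 TPM. Lymphocyte genes were low. The T and NK cell list summed to 11.9 ± 6.43 TPM, with Nkg7 at 5.11 TPM, Lck at 2.94 TPM and Cd3g, Cd8b1 and Prf1 at 0 reads. Dendritic cell genes summed to 9.73 ± 6.06 TPM with Cd209a first at 4.86 TPM, and mast cell genes to 17.8 ± 3.77 TPM, with the chymase Cma1 at 6.68 and Kit at 6.39 TPM.

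The summed levels of the neutrophil, erythroid, cycling-cell, B cell and muscle lists were all highest in replicate 4. The neutrophil list summed to 309, 379, 532, 1450 and 480 TPM. All 8 of its genes with enough reads were variable, and 11 of its 12 members were highest in replicate 4. A gene could reach the minimum of reads through that ganglion alone. S100a9, a calcium-binding protein that fills neutrophils, was at 95.1, 113, 205, 463 and 162 TPM. Ngp, a granule protein of developing neutrophils in marrow (chr9:110419747-110423012), was at 63.9, 106, 133, 418 and 119 TPM. Elane and Mpo, made by neutrophil precursors, were at 9.45 and 4.29 TPM, and the receptor Csf3r at 0.765 TPM. Erythroid genes summed to 11732, 9068, 6793, 15286 and 8316 TPM, and all 8 were highest in replicate 4. Hba-a1 was at 4202, 3187, 2367, 4863 and 2974 TPM, and its ratio to Hba-a2 stayed at 2.06 ± 0.0472. Alas2, the haem synthesis enzyme of developing red cells, was at 40.8 TPM (25.9 to 81.4) and was variable.

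The 8 cycling-cell genes were low, at a summed 5.34, 14.1, 10.1, 22.8 and 13.3 TPM, but all 8 were highest in replicate 4 too. The B cell list was at 45.1, 44.3, 12.4, 115 and 32.9 TPM. Its Ighm, the immunoglobulin M heavy chain, ranged from 8.58 to 73.4 TPM, and Cd79b, a part of the B cell receptor, was at 7.86, 4.25, 1.35, 31.5 and 8.98 TPM. Skeletal muscle genes were at 62.5, 48.0, 20.4, 194 and 60.5 TPM. Acta1, skeletal muscle actin, made 55.03% of this and was at 39.5, 21, 12.3, 110 and 29.0 TPM. Bone genes summed to 30.3 ± 10.5 TPM, led by Ibsp (bone sialoprotein, 18.5 TPM) and Bglap (osteocalcin, 5.72 TPM), and were also highest in replicate 4 at 46.9 TPM. Replicate 3 was lowest in the erythroid, B cell, muscle and bone lists, although under median-of-ratios scaling replicate 2 was lowest in the bone list. Whether attached marrow, muscle or blood contributed these reads was not tested.

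Of the 8 pituitary genes Gh and Pomc had reads in every ganglion, and replicate 3 stood far above the others for both. Gh, growth hormone (chr11:106300271-106301865), was at 18.2, 55.4, 8854, 852 and 224 TPM. In replicate 3 it came close to Pmp22 (9414 TPM), the highest nuclear protein-coding gene, and no pair of ganglia was alike. Prl, prolactin, was at 0, 4.32, 259, 20.6 and 5.96 TPM. Pomc, the precursor of ACTH and melanocyte-stimulating hormone, was at 1.67, 5.54, 47.6, 10.8 and 5.97 TPM. Cga, the shared alpha subunit of the glycoprotein hormones, was at 3.33, 1.28, 54.2, 1.32 and 0 TPM. Of the 7 list genes with reads, 6 were highest in replicate 3. Without replicate 3 the sum of the list fell from 2089 to 304 TPM. The beta subunit Fshb ranged from 0 to 12.8 TPM, Tshb was at 0.463 and the pituitary transcription factor Pou1f1 at 0.160 TPM. Lhb had 0 reads, but all of its exonic bases overlap another gene, so its value cannot be read. The pan-neuronal, satellite glia and myelin sums of replicate 3 were 7897, 7852 and 13875 TPM, against means of 8578, 8469 and 13466 TPM. Whether attached pituitary tissue contributed the hormone reads was not tested.

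The promoters of 4 hormone genes that have an entry in the RefSeq table are shown. Prl and Pomc were among the 15 most variable protein-coding genes of these ganglia, and Cga and Fshb were added from the same list. Each run covers 250 bases before and 50 bases after the annotated start, 5′ to 3′ on the strand of the gene, in GRCm38.p6. Capitals mark matches, on either strand, to TATAAA and to ATGNATA, a core bound by the pituitary factor Pit-1. In Prl the TATAAA matches of both strands overlap.
Prl (chr13:27057320-27057619, + strand): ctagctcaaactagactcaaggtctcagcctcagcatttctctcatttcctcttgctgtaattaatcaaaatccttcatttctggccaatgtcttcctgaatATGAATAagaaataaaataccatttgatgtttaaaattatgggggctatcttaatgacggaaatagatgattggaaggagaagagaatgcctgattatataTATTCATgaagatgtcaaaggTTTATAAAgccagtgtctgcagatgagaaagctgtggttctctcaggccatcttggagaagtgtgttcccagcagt
Pomc (chr12:3954695-3954994, + strand): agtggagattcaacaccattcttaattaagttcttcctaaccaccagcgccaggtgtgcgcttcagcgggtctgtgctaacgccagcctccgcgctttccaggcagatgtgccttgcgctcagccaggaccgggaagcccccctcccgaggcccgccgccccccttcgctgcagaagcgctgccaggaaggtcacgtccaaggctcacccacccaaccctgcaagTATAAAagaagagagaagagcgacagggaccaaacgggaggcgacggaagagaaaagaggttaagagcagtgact
Cga (chr4:34893529-34893828, + strand): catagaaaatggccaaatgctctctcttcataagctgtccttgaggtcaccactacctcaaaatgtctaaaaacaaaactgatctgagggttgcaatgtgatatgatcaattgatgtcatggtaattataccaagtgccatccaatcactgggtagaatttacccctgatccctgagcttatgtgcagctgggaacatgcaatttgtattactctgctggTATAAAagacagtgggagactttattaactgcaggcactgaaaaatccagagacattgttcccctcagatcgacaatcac
Fshb (chr2:107059602-107059901, - strand): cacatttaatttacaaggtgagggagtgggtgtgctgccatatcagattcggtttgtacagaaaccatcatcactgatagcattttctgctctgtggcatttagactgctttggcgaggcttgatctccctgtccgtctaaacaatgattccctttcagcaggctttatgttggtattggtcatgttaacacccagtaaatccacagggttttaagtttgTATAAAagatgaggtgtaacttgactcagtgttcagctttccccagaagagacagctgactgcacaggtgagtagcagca
TATAAA was found in all 4 promoters and ATGNATA in Prl only, at 2 places. Of 32851 RefSeq promoters of this length, 13.6% hold TATAAA and 8.84% hold ATGNATA. A match is a description of the letters and does not show binding.

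Ion channels and receptors were lower than the structural genes. The 13 lists from TRP channels to the G protein-coupled receptors of nociceptors held 224 genes, and 131 (58.5%) were detected in all 5 ganglia. Of 136 genes with enough reads, 14 (10.3%) were variable, and the median excess CV was 0.260. Over all nuclear protein-coding genes 49.2% were detected, 6.39% of those with enough reads were variable and the median was 0.218. The channel and receptor genes were not matched to these for level, on which spread depended. Of the 208 channel and receptor genes with any read, 121 (58.2%) were highest in replicate 1 or 2. Among all nuclear protein-coding genes with a read the share was 49.5%, and in the neuron, glia and myelin lists 55.8%. These shares were not tested against each other. Many of these genes are long, and the 2600 longest genes as a whole were higher in those ganglia, by a median log2 of 0.25 and 0.23 over the geometric mean of the 5. Whether length accounts for the share among channel genes was not tested.

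Among TRP channels 12 of 26 were detected and none of the 12 tested was variable. Trpv2, a channel of larger neurons, led at 34.8 TPM (27.8 to 42.2), followed by the lysosomal channel Mcoln1 at 26.6 TPM (22.1 to 31.3). Trpv1, the capsaicin and heat receptor (chr11:73234292-73261242), was at 17.9, 25.9, 27.2, 22.7 and 24.2 TPM. Trpa1, the irritant receptor, was at 23.7, 32.1, 9.63, 17.9 and 17.2 TPM, with replicate 3 lowest. Trpv1 was 2.08 ± 0.505 times Trpm8 and was the higher of the 2 in every ganglion. Its ratio to Trpa1 ran from 0.757 in replicate 1 to 2.82 in replicate 3, so these levels had no settled order. Trpv5, Trpm1, Trpm5 and Mcoln3 had 0 reads in all 5 ganglia, where 3 reads over the libraries would be 0.0254 TPM for Trpm5. Trpc2 was also at 0, but its exons lie wholly within those of another gene.

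Voltage-gated sodium channels were led by the pain-neuron channel Scn10a (Nav1.8), at 75.7, 76.2, 63.9, 60.3 and 72.8 TPM. The glial and neuronal channel Scn7a followed at 53.6 TPM (44.6 to 65.6). Scn9a (Nav1.7) was at 50.8, 50.3, 35.5, 34.2 and 35.9 TPM, higher in replicates 1 and 2 than in the other 3. Scn1a (Nav1.1), found in large neurons, was at 34.6 TPM (29.1 to 42.5), and Scn11a (Nav1.9) and Scn8a (Nav1.6) were at 24.5 and 24.0 TPM. The order Scn10a, Scn7a, Scn9a, Scn1a held in 5 of 5 ganglia although neighbouring ranges overlapped. Scn2a, Scn3a and Scn4a were at 1.85, 1.57 and 0.287 TPM. The beta subunits Scn3b and Scn4b were at 21.1 TPM (13.5 to 32.9) and 17.9 TPM (12.1 to 26.2), and Scn2b was lower at 8.95 TPM.

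Potassium channels reached higher levels. Kcna1, a channel of large neurons and axons, was at 212, 201, 147, 154 and 172 TPM. Kcns3, a modifying subunit, was at 71.6, 112, 144, 122 and 134 TPM. They tilted in opposite directions, as replicate 1 was highest for Kcna1 and lowest for Kcns3. Kcns1 was at 48.4 TPM (34.7 to 78.6), Kcna2 at 34.5 and Kcnd1 at 34.5 TPM. Of 27 voltage-gated members 19 were detected, and Kcna4 and Kcnc2 were among the 3 variable ones. Among the other potassium channels the leak channel Kcnk1 stood alone at 266, 243, 253, 278 and 162 TPM, lowest in replicate 5. The inward rectifier Kcnj12 was at 31.0 TPM, Kcnk18 (TRESK, a leak channel linked to migraine) at 30.6 TPM (22.2 to 46.9) and the calcium-activated Kcnn1 at 19.2 TPM.

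Of calcium channel genes the auxiliary subunit Cacnb3 was highest at 112 TPM (90.3 to 139), followed by Cacnb4 at 27.3, Cacna2d3 at 12.1 and Cacna2d1, the gabapentin target, at 9.87 TPM. The pore subunits were lower, with Cacna1b (N-type) at 7.26 TPM (4.81 to 9.37), Cacna1a at 2.51 and Cacna1h (T-type) at 1.45 TPM, and Cacna1f had 0 reads. In the list of HCN and chloride channels Ano3 was at 40.0 TPM (32.3 to 49.6), the chloride importer Slc12a2 at 26.4 TPM, Clcn3 at 18.6 and Clcn2 at 9.47 TPM. The chloride exporter Slc12a5 was at 0.157 TPM, below Slc12a2 in every ganglion. Among pacemaker channels Hcn3 and Hcn2 were at 8.14 and 5.97 TPM and Hcn4 at 0.327 TPM.

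Mechanosensitive and acid-sensing channels were dominated by Asic3, an acid sensor of sensory afferents, at 214, 303, 228, 261 and 166 TPM. It was 14.8 ± 4.601 times Asic2. Tmem120a was at 48.1 TPM (26.6 to 60.7), Tmem63b at 23.4 TPM and the touch channel Piezo2 at 23.3 TPM (15.3 to 31.3), whereas Piezo1 was at 0.543 TPM. Stoml3 and Asic4 had 0 reads. Among purinergic receptors P2rx3 was first and P2ry2 (25.3 TPM), P2rx6 (20.1 TPM) and P2rx5 (17.8 TPM, 6.02 to 30.3) followed, with P2rx5 variable. P2rx2, which can join P2rx3 in a channel, was at 2.09 TPM.

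Of the inhibitory receptor subunits the glycine receptor gene Glrb was at 52.2 TPM (37.6 to 71.1) and the GABA-A subunit gene Gabra2 at 35.5 TPM (30.6 to 40.3). The glycine receptor alpha genes Glra1 and Glra3 had 0 reads and Glra2 was at 0.0621 TPM, so that Glrb had no abundant alpha partner among the genes listed. Glutamate receptor subunits were led by the kainate subunit Grik1 at 31.6 TPM (20.8 to 40.9), then Gria4 at 15.4, Grik4 at 9.20 and Gria3 at 6.94 TPM, and the NMDA subunit Grin1 was at 3.09 TPM with Grin2a at 0 reads. The serotonin-gated channel Htr3a was at 174, 150, 224, 231 and 240 TPM, and its partner Htr3b at 30.6 TPM (11.5 to 43.4). Nicotinic subunits were lower, with Chrnb2 at 24.4 TPM (21.4 to 28.2) and Chrna6 at 13.7 TPM. Chrna6 was variable, from 7.98 to 28.1 TPM.

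Among 36 G protein-coupled receptors of nociceptors 17 were detected and 4 of 19 tested were variable. The lysophosphatidic acid receptor Lpar1, also made by Schwann cells, was highest at 105 TPM (70.8 to 122). The GABA-B subunit Gabbr2 was at 47.8 TPM, the thrombin receptor F2rl2 at 35.2 TPM and the triptan receptor Htr1d at 32.8 TPM (26.9 to 36.7). Opioid receptors differed in level, with Oprl1 at 27.5 TPM, the mu receptor Oprm1 at 5.81 (3.53 to 7.84), Oprk1 at 1.69 and Oprd1 at 0.525 TPM. The substance P receptor Tacr1 and the bradykinin receptor Bdkrb1 had 0 reads, where 3 reads over the libraries would be 0.0250 TPM for Tacr1. Thus the ligand gene Tac1 was abundant while its main receptor was not found at this depth. Npy1r was variable, from 0.0759 to 11.2 TPM.

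**Figure D3:**
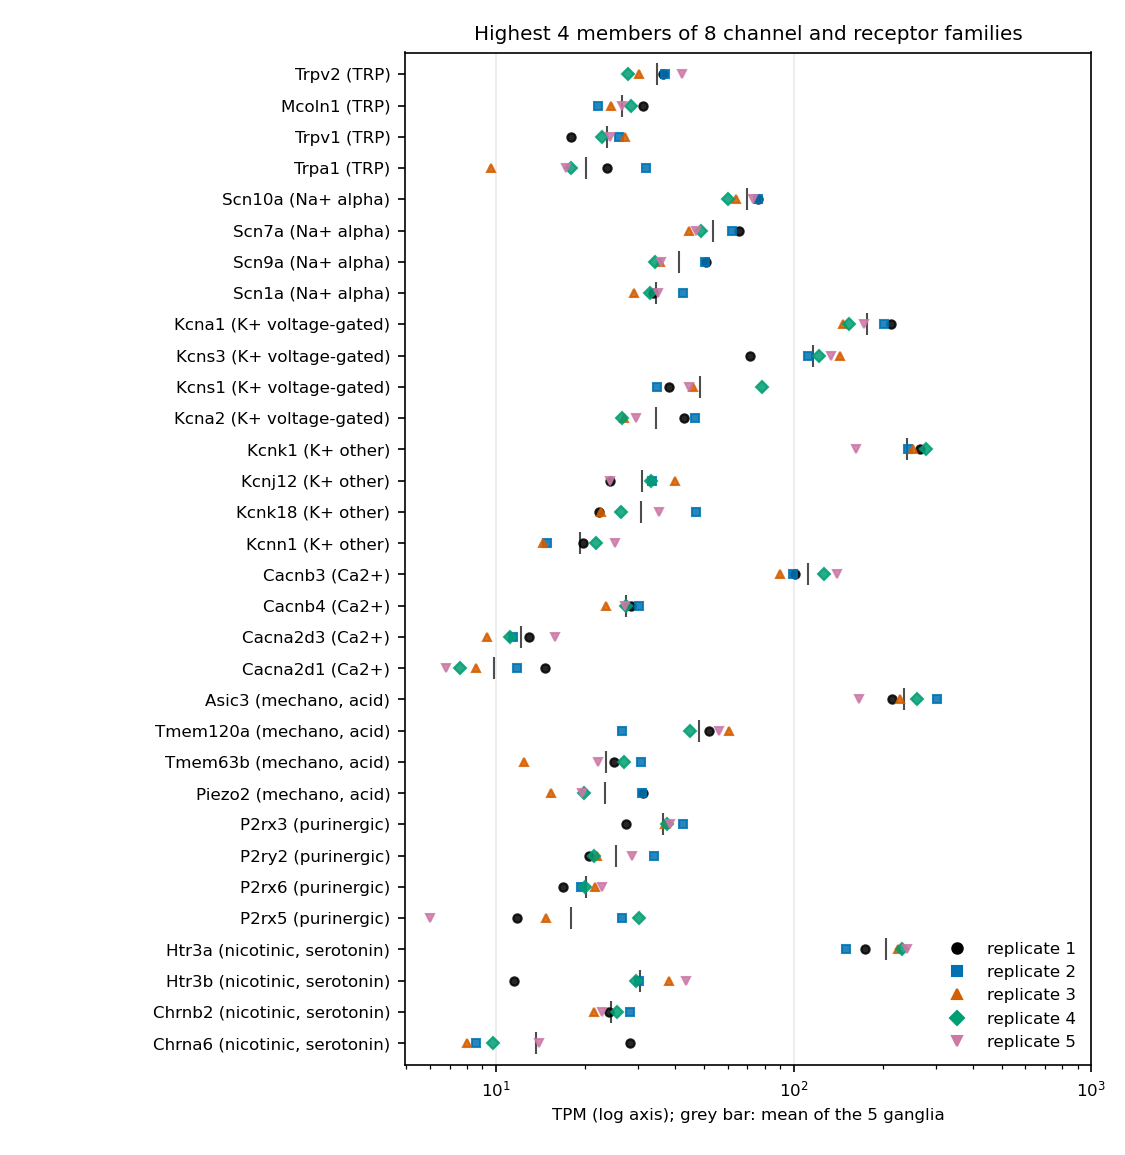
TPM (log axis) of the 4 highest members of 8 channel and receptor families in the 5 vehicle ganglia, with a symbol per replicate and a bar at the mean. Kcnk1, Asic3, Htr3a and Kcna1 stood above the rest at means of 177 to 240 TPM, and most neighbours within a family overlapped.

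Receptors for neurotrophic factors were detected for 16 of 19 genes, and Egfr was the variable member. Below Gfra3 came the tyrosine kinase Ret, shared by the GDNF family, at 92.6 TPM (66.2 to 113), and Lifr at 41.2 TPM. The co-receptors Gfra4, Gfra1 and Gfra2 were at 39.7, 39.3 and 24.5 TPM. Neuropeptide genes were led by Calca, Calcb, Tac1 and Nmb (neuromedin B, 158 TPM, 130 to 207), with Scg2 at 95.9 TPM, Cartpt at 42.6 TPM (36.2 to 50.3), Penk at 4.54 and Vip at 1.17 TPM. Nmu and Gast had 0 reads.

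Genes that rise in sensory neurons after nerve injury were present at widely different levels. Gap43, a growth cone protein, was at 245, 250, 271, 206 and 317 TPM. Atf3, an injury-induced transcription factor (chr1:191170296-191218039), was at 11.1, 29.3, 27.1, 23.1 and 23.8 TPM, lowest in replicate 1. Npy, a peptide induced in injured large neurons, was at 0.864, 1.08, 4.27, 7.80 and 18.5 TPM on a mean count of 13.6 and was too low for the spread measure. Klf6 and Stat3 were at 43.7 and 42.4 TPM, while Sprr1a and Sox11 were at 2.92 and 2.88 TPM and Ecel1 at 0.0997 TPM. Of the 18 genes 11 were detected and none of the 11 tested was variable. With no uninjured ganglion these levels cannot be read as induction. Immediate early genes, which answer to activity and handling, included Nr4a1 at 23.3 TPM (18.5 to 26.9) and Dusp1 at 20.2 TPM (15.7 to 23.1). Fos was at 9.05, 7.12, 11.1, 18.6 and 40.5 TPM and was the variable member, whereas Fosb and Npas4 had 0 reads.

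Genes of the lipid mediator pathway studied in this series were mostly low in the ganglion. Serpinf1, which encodes PEDF, was at 138, 161, 157, 157 and 137 TPM, a CV of 7.57%. Its proposed receptors Plxdc2 and Pnpla2 were at 23.8 TPM (19.7 to 27.1) and 9.32 TPM. Of the lipoxygenase genes Alox12 was at 1.99, Alox5 at 1.17 and Alox15 at 0.778 TPM, and Alox5ap, which serves Alox5, was at 8.16 TPM. The resolvin receptor genes Fpr2, Gpr18 and Cmklr1 were at 3.26, 0.940 and 0.0185 TPM, and Ptgs2 had 0 reads where 3 reads would be 0.0354 TPM. Further genes that the study examined were the neuropilin Nrp1 at 14.7 TPM (10.0 to 18.9), C9orf72 at 53.9 TPM (41.5 to 72.3), the growth cone glycoprotein Gpm6a at 55.3 TPM (42.3 to 71.99) and Rictor, a subunit of mTORC2, at 2.72 TPM (2.12 to 4.19).

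The order of levels within a family was often not fixed. Among the 4 highest members of each list there were 141 neighbouring pairs. In 85 of them the first was above the second in all 5 ganglia, and in 48 the ranges did not overlap. Over all members, 160 of 488 neighbouring pairs kept their order in 5 of 5 and 84 did not overlap. With 5 ganglia a two-sided exact sign-flip test cannot go below p = 0.0625, so no test was made for these orders.

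Spread depended on level. The median excess CV was 0.0944 for nuclear protein-coding genes of 1000 TPM or more, 0.125 between 100 and 1000, 0.194 between 10 and 100, and 0.306 between 1 and 10 TPM. The steadiest genes with at least 500 reads on average were Dpp8, Zranb2, Sugt1, Snrpn, Jkamp, Lrrfip2, Myl6, Parp1, Tmem41a and Sec62. Their TPM had a CV of 2.88% to 6.89%, and their excess CV was 0, the floor of the measure. A value at the floor does not show that a gene has no spread between ganglia. Dpp8, a dipeptidyl peptidase, was at 12.4, 12.5, 11.9, 11.7 and 12.0 TPM, and Zranb2, a splicing factor, at 40.2, 37.9, 36.3, 38.2 and 37.96 TPM. None of these 10 belongs to a cell type list.

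The most variable protein-coding genes were Prl, Gh, Lrg1, Pomc, Cep152, Zfp420, Ckm, Dhcr7, Cd79b, Dglucy, Zfp59, Degs2, Zfp78, Mcm5 and Gpr157. Their excess CV lay between 1.04 and 1.96. Lrg1, a secreted glycoprotein of neutrophils, liver and endothelium, was at 5.73, 6.92, 60.4, 12.1 and 0 TPM. Like the hormones it was highest in replicate 3. Dhcr7, the last enzyme of cholesterol synthesis, was at 3.70, 4.29, 4.53, 3.42 and 23.5 TPM, and Degs2, a sphingolipid desaturase, at 4.26, 2.83, 5.98, 1.95 and 20.7 TPM, both highest in replicate 5. Zfp420, a zinc finger gene, was highest in replicate 4 at 9.38 TPM against 0.319 to 2.35 in the others. Except for Gh, Prl and Dhcr7 these genes had mean counts under 100, close to the minimum of 50.

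Some abundant genes also differed between ganglia by far more than counting allows. These were chosen after their values were seen, as genes with at least 500 reads on average and an excess CV over 0.5. Ptgds, prostaglandin D2 synthase of meninges and glia (chr2:25466709-25470046), was at 2272, 1089, 747, 545 and 434 TPM. It was highest in replicate 1. Ceacam10 was at 183, 255, 7.43, 262 and 228 TPM, so that it was nearly missing from replicate 3 and even among the others. Csrp1, a LIM protein that binds the actin cytoskeleton, was at 18.8, 89.5, 14.1, 142 and 142 TPM. Zrsr1, an imprinted splicing factor, was at 12.1, 9.35, 53.2, 42.7 and 40.6 TPM, and Snx10, a sorting nexin, at 11.3, 7.20, 21.7, 42.6 and 49.5 TPM. Sfrp5, a secreted Wnt inhibitor, was at 42.5, 114, 145, 38.3 and 32.03 TPM, Tmem45b at 71.4, 5.41, 43.0, 35.04 and 63.1 TPM, and Actr3b at 41.8, 35.8, 137, 132 and 65.6 TPM. For several of them the values fell into a low and a high set, and the sets were not formed by the same ganglia. The gene with the largest excess CV of all, 2.04, was the pseudogene H2-Ea-ps of the histocompatibility locus, at 1.65, 0, 68.1, 1.52 and 2.28 TPM.

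**Figure D4:**
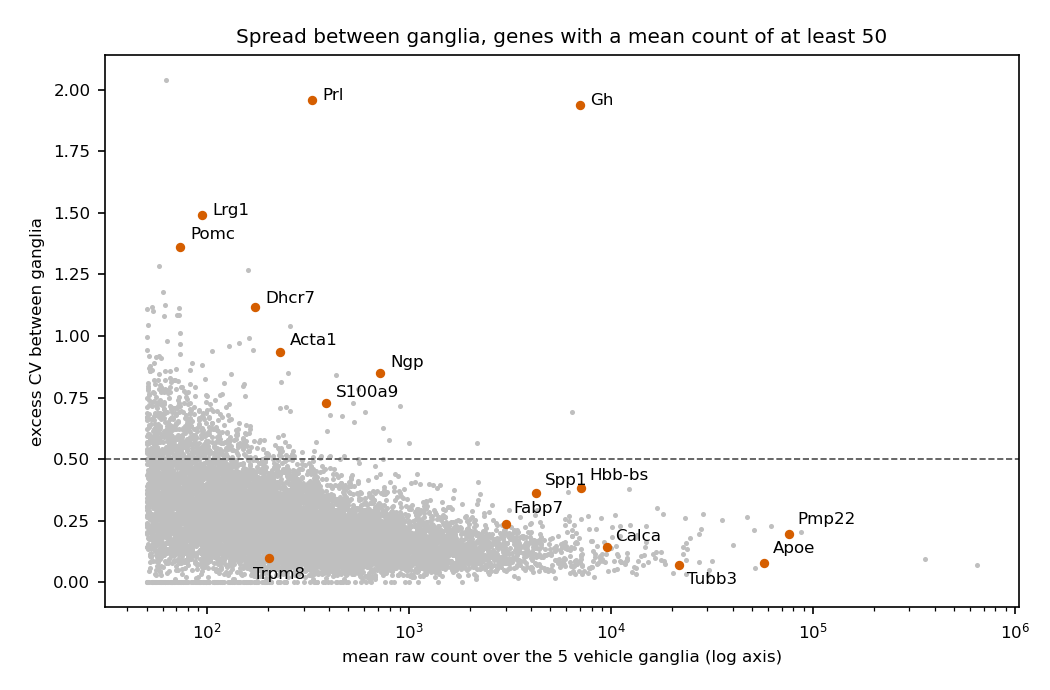
Excess CV between the 5 vehicle ganglia against mean raw count (log axis) for 11614 genes, with named genes in colour and a dashed line at 0.5. The spread narrowed with count, and Gh, with 6979 reads on average, lay far above genes of like count at 1.94.

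No ganglion was lowest or highest throughout. Replicate 4 was highest in 11 of the 31 cell type lists and replicate 3 was lowest in 16. Over all 49 lists replicate 3 was lowest in 22, and in 13 under median-of-ratios scaling. Of the 718 variable genes, 190, 165, 79, 114 and 170 were highest in replicates 1 to 5. Gene length also separated the ganglia. For the 2600 longest genes, of 7377 exonic bases or more, the median log2 ratio to the geometric mean of the 5 ganglia was 0.25, 0.23, -0.20, -0.09 and -0.13. For the 2603 shortest genes, of 258 to 3006 bases, it was -0.04, 0.00, -0.01, 0.03 and 0.07. Replicates 1 and 2 were thus higher in long genes and replicates 3, 4 and 5 lower. Sodium channel alpha subunits have a median length of 9955 bases and were at a summed 295, 293, 213, 224 and 239 TPM, the same division of the ganglia. The summed level of calcium channel genes, with a median length of 9812 bases, did not show this division. It was 181, 177, 146, 188 and 207 TPM, highest in replicate 5, but Cacnb3 made 61.95% of the mean sum. Of the 17 members with reads, 7 were highest in replicate 1 and 4 in replicate 2. Whether length accounts for the level of a list was not tested. Neuropeptide genes have a median length of 1291 bases and summed to 2497, 2451, 2633, 2539 and 2891 TPM, highest in replicate 5.

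**Figure D5:**
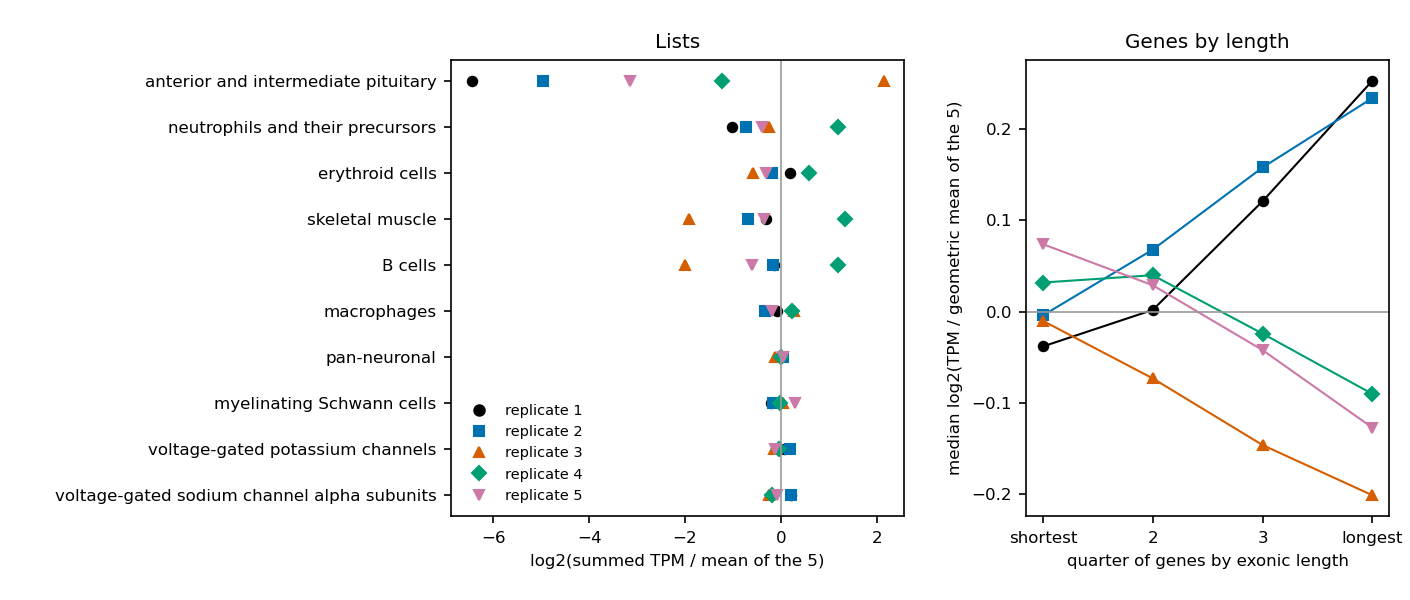
Left, log2 of the summed TPM of 10 lists over the mean of the 5 vehicle ganglia, with a symbol per replicate. Right, median log2 of TPM over the geometric mean of the 5 ganglia for genes in 4 classes of exonic length, in which replicates 1 and 2 reached 0.25 and 0.23 for the longest genes and replicate 3 reached -0.20.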

How the data were processed

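Total RNA from the 5 vehicle TG was reverse transcribed from oligo-dT by an adapted Smart-seq2 protocol and amplified by PCR without molecular identifiers, so floors cover counting error only. Such libraries can cover long transcripts unevenly. The authors aligned the reads to GRCm38 with Rsubread, counted exons per gene with featureCounts and deposited raw counts and exonic lengths for 55573 genes. The submitters' processing notes name R 3.6.1 and Subread 1.6.5, and the file header featureCounts 1.5.0-p1. No strand option is stated, so a gene and its antisense partner cannot be told apart, and reads over exons shared by overlapping genes may not have been counted. Symbols from GENCODE release M21 named 99.83% of identifiers.

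TPM was computed over all genes. Depth was 7421910 to 9903396 counts per sample. Excess CV is the square root of the squared CV of counts scaled by median-of-ratios factors, less the reciprocal of the mean count. The difference was floored at 0, and the measure was tested on simulated data. In edgeR 4.0.16 the common biological CV was 0.285 and the median gene-wise value 0.255. No groups were compared and no p-values computed. Correlations used log2(TPM + 1). Shared sequence was found by matching every 75-base window of the transcripts. RefSeq promoters of chromosome 18 were not used.

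The 49 lists (31 of cell types, 18 of families) hold 557 genes, of which 332 were detected, 40 of 316 tested were variable and 34 had 0 reads. The members and lists were chosen with earlier results of these data known. Named genes were the 4 markers, the 15 highest nuclear protein-coding genes, the 4 highest of each list and its members under 0.1 TPM in every sample, the 15 most and 10 least variable protein-coding genes, and 7 genes that the study plots. Other list members were named after their values were seen, to show the range of a class. Some members of the lists are not reported here. Alternatives changed the TPM minimum, length scaling, denominator, count minimum and normalization, and left out each sample in turn. Python 3.11.15, pandas 2.3.3, NumPy 2.4.6, SciPy 1.17.1 and R 4.3.3 were used.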

Additional observations from a re-analysis of the deposited data

Results flagged for a closer look

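In each of 138 results (49 lists, 67 genes and 22 measures of the libraries) the ganglion farthest from the rest was set against Dixon's limit for 5 samples, 0.71. The limit is passed by chance in about 1 of 20 independent groups, and 17 results passed it. That rate does not apply here, because the genes included the 15 most variable ones and others picked for their spread between these same ganglia, and because lists and their members share values.

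Of the lists, the pituitary sum was 9229 TPM in replicate 3, the neutrophil sum 1450 TPM and the skeletal muscle sum 194 TPM in replicate 4, and the sympathetic sum 0.726 TPM in replicate 2, each far above the other ganglia. The endothelial sum was 255 TPM in replicate 1, far below the others, although 5 of its 14 members were highest in that ganglion.

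Of the genes, 6 were far higher in replicate 3 than elsewhere: Gh at 8854 TPM, Prl at 259, Pomc at 47.6, Cga at 54.2, Lrg1 at 60.4 and H2-Ea-ps at 68.1 TPM. Replicate 4 stood apart for Ngp at 418 TPM, Acta1 at 110, Cd79b at 31.5 and Zfp420 at 9.38 TPM. Replicate 5 stood apart for Dhcr7, high at 23.5 TPM, and for Mrgpra3, low at 10.3 TPM. Neither Tubb3 nor the other 3 tissue markers were among them. The causes were not tested.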

How the results depend on the processing

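The number of detected genes stayed within 1.5 times of 13231 under every alternative tried. Counted as a share of reads and not of TPM, nuclear protein-coding genes took 77.6% and pseudogenes 6.10%. With nuclear protein-coding genes alone as the denominator, the pan-neuronal, satellite glia and myelin sums were 15284, 15083 and 23980 TPM, a change that follows from the smaller denominator. With 200 bases taken off each length, the pan-neuronal and satellite glia sums were 7685 and 7652 TPM. Under median-of-ratios scaling the mean of no list moved by more than its SD. The scaled values were set to the same mean total, so these means could move little. The highest ganglion changed in 7 of 49 lists and the lowest in 11. The lowest became replicate 1 in place of replicate 3 for the pan-neuronal, satellite glia and sensory transcription factor lists, and the highest became replicate 3 in place of 4 for endothelium and replicate 5 in place of 1 for fibroblasts. Variable genes numbered 59 with a mean count of at least 200 and 2973 with at least 10, against 718. They numbered 609 to 872 when each ganglion was left out in turn, and 719 with TMM normalization. Without 1 ganglion the pituitary sum ran from 304 TPM (without replicate 3) to 2605 TPM. Over all genes with a count, the median Spearman correlation was 0.878 in place of 0.939. Without length scaling 104 of 141 neighbouring pairs kept the order of their means, and 138 did with the shorter lengths. Genes below 1 TPM rest on few reads, and 0 reads does not show absence. No paired analysis was possible because a single group was described and replicate numbers are not shared between groups.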
